A study of Homo sapiens with 4 samples.

Results

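The DNA topoisomerase genes were compared between HEK293T cells whose RNA polymerase II carried a T4A C-terminal domain and cells whose polymerase carried a wild-type (WT) domain. HEK293T is a human embryonic kidney line. The 6 members, TOP1, TOP1MT, TOP2A, TOP2B, TOP3A and TOP3B, were chosen by symbol as topoisomerase genes, with no threshold on a measured value. All 6 were found among the 62700 genes of the deposited tables, and all 6 had enough counts to be among the 18139 genes tested. The study asked what threonine-4 of the heptad repeats of RPB1, the largest subunit of the polymerase, does for transcription. In the T4A group the transfected RPB1 had alanine in place of threonine-4 in every repeat, and in the WT group it had the unaltered repeats. Both versions resisted α-amanitin, a toxin that removes the cell's own RPB1, and both groups received 2.5 μg/ml α-amanitin for 48 hours, beginning 1 day after a transient transfection. Both groups thus relied on an introduced polymerase from a transient transfection, and neither stands for untreated cells. Poly(A) RNA was sequenced in 2 libraries per group, 4 in all.

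Topoisomerases cut DNA, let the strands pass or turn, and seal the cut again, which releases the twist that transcription and replication build up. Type IB enzymes (TOP1 in the nucleus, TOP1MT in mitochondria) nick a single strand and let it rotate. Type IIA enzymes (TOP2A in dividing cells, TOP2B in nearly all cells) pass a double strand through a break in another, which untangles sister chromosomes before they part. Type IA enzymes (TOP3A, TOP3B) pass single strands and resolve joined molecules, and TOP3B also acts on RNA. TOP1 is the target of camptothecin and both TOP2 enzymes are targets of etoposide. TOP1 works close to the elongating polymerase and is known to bind its phosphorylated C-terminal domain.

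TOP2A fell furthest, and TOP1 and TOP2B fell by less. Their promoters are shown here because these are the 3 members whose mRNA was lower in T4A cells. RefSeq windows of GRCh38.p14 run from 250 bases before to 50 bases after the start of each gene, and 5 of the 6 members had a window there. Capitals mark CCAAT boxes, the letters CCAAT or, on the other strand, ATTGG. The TOP2A window is chr17:40417847-40418146 on the minus strand, the TOP2B window at the gene's annotated start is chr3:25664858-25665157 on the minus strand, and the TOP1 window is chr20:41028572-41028871 on the plus strand.
TOP2A: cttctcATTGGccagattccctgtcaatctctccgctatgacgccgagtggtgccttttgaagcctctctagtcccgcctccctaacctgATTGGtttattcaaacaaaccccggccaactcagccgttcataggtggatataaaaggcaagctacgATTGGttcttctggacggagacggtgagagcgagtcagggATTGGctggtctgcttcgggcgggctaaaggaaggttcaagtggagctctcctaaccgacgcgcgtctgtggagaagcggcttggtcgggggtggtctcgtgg
TOP2B: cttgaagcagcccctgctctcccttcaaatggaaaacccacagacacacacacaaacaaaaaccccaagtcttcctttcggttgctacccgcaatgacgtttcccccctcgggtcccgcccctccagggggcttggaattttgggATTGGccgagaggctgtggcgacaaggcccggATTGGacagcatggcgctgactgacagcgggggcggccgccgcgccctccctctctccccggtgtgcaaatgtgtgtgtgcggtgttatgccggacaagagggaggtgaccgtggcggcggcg
TOP1: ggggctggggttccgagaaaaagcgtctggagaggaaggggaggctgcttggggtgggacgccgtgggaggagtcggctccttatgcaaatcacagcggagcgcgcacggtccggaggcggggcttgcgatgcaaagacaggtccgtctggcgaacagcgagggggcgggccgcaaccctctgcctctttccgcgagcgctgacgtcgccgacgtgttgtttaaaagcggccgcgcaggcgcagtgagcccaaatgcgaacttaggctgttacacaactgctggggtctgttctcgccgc
The TOP2A window held 4 CCAAT boxes, whose first bases lay at -244, -160, -93 and -53 from the start. The TOP2B window held 2, at -105 and -73, and the TOP1 window held 0. A second TOP2B window in RefSeq, at another start (chr3:25664323-25664622), held 0 CCAAT boxes, 1 GC box and no TTTGAA or TTCAAA. Of 35116 windows of the same length, 34.6% held at least 1 CCAAT box, 10.8% at least 2 and 0.991% at least 4. A GC box (GGGCGG or its complement CCGCCC, the letters that Sp1 reads) occurred once in TOP2A, once in TOP1 and at 2 places in TOP2B, against at least 1 in 45.0% of all windows. The letters TTTGAA or TTCAAA, known as the CHR element of genes expressed late in the cell cycle, stood at 2 places in TOP2A and 1 in TOP2B, against at least 1 in 15.2% and at least 2 in 2.27% of all windows. The windows of TOP3A and TOP3B, which were not called, held 0 CCAAT boxes and no TTTGAA or TTCAAA. Their GC boxes numbered 3 in TOP3A and 1 in TOP3B. A match is a run of letters and not a measured binding site.

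Total counts came to 23465029 and 19257217 for T4A and to 33063535 and 24695291 for WT, so the T4A libraries were the shallower ones. POLR2A, the gene of RPB1 (chr17, 7484366 to 7514616 on GRCh38.p14), was counted 122045 and 103032 times in T4A, against 126505 and 70786 times in WT. Levels in CPM (counts per 1000000, with library sizes scaled by TMM) averaged 5428 ± 70.5 in T4A and 3268 ± 713 in WT (SD, n = 2 each), a log2 fold change of 0.73 ± 0.08 (SE; edgeR quasi-likelihood adjusted p = 7.23e-07). The counts do not separate transfected from endogenous RPB1 and so do not check which version was present. Of the HEK293T markers 6 of 7 were tested, and 2 rose (KRT8, and VIM, not called with library totals) and 1 fell (SALL2, not called without WT replicate 2). Among all genes tested 10.7% were higher and 13.0% lower. The HEK293T list summed to 330.1 and 315 CPM in T4A and 284 and 288 CPM in WT. LHX1 was counted 0 and 0 times in T4A and 0 and 2 times in WT. Markers of other cell types summed to 36.8 and 39.3 CPM in T4A and 40.6 and 43.4 CPM in WT. Of their 14 genes 13 were found and 6 had enough counts to test, and edgeR called 0. PTPRC of blood cells, CD3E of T cells, CDH5 of endothelium and COL1A2 of fibroblasts had at most 4 counts in a library.

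Of the 6 topoisomerase genes 3 fell in T4A cells and 0 rose, by edgeR at an adjusted p under 0.05. None was higher by DESeq2 or limma-voom, or at an unadjusted p under 0.05 (0 in each case). Among all genes tested 23.6% were called, 10.7% as higher and 13.0% as lower. Of the 7397 genes that averaged 10 CPM or more, as 5 of the members did, 47.1% were called and 24.7% were lower, so a lower call is common at these levels. The T4A libraries lay on one side of both WT libraries for 4 members, TOP1, TOP2A, TOP2B and TOP3A, against 59.0% of all genes tested. The median log2 fold change of the 6 members was -0.17, and that of all genes tested was -0.0066.

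**Figure D1:**
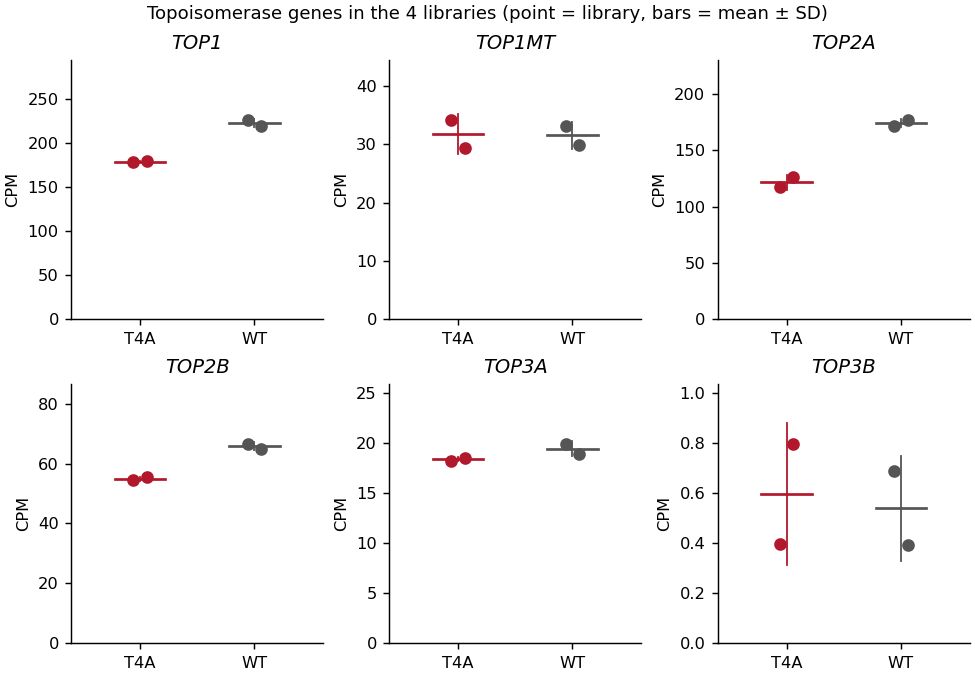
Level of each topoisomerase gene in CPM (y axis, a separate scale for each gene) in T4A libraries and WT libraries. Points are single libraries and bars are group means with the SD (n = 2 each). TOP1, TOP2A, TOP2B and TOP3A sit lower in both T4A libraries than in either WT library, and TOP3A was not called.

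TOP1 (ENSG00000198900.7, chr20, 41028822 to 41124487 on GRCh38.p14) relaxes supercoils of either sign around moving polymerases. It had 179 and 179 CPM in T4A, against 226 and 219 CPM in WT, on 4052 and 3363 counts for T4A and 7572 and 5607 for WT. Both T4A libraries lay below both WT libraries, and the groups did not overlap. The means were 178.7 ± 0.17 CPM in T4A and 222.3 ± 4.85 CPM in WT (SD, n = 2 each). TOP1 fell to 0.803 of its WT level, a log2 fold change of -0.32 ± 0.05 (SE; 95% interval -0.41 to -0.22; edgeR adjusted p = 4.28e-05). The call was made in all 12 alternative fits, with log2 fold changes between -0.39 and -0.23. Counting error alone was 1.57% and 1.72% in T4A and 1.15% and 1.34% in WT, well under the difference.

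TOP1MT (ENSG00000184428.13, chr8, 143309324 to 143359977), the mitochondrial type IB enzyme, behaved otherwise. Its levels were 34.2 and 29.4 CPM in T4A and 33.2 and 29.9 CPM in WT, on 776 and 553 counts for T4A and 1114 and 766 for WT. The 2 WT values lay between the 2 T4A values, so the groups overlapped in full. The means were 31.8 ± 3.39 CPM in T4A and 31.6 ± 2.34 CPM in WT (SD, n = 2 each). The log2 fold change of 0.01 ± 0.10 (SE) did not pass the test (edgeR adjusted p = 0.958). Its 95% interval of -0.20 to 0.22 leaves room for a change in either direction, and the sign turned negative with library totals as the scale. The TOP1 to TOP1MT ratio, per kilobase of exon, was 3.31 and 3.86 in T4A and 4.31 and 4.64 in WT. The T4A ratios were both lower, at an exact permutation p of 0.333, which is the smallest that 2 against 2 libraries can give.

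TOP2A (ENSG00000131747.15, chr17, 40388525 to 40417896), the enzyme that untangles chromosomes in dividing cells, fell the most of the 6. It had 117 and 126 CPM in T4A, against 172 and 177 CPM in WT, on 2658 and 2373 counts for T4A and 5757 and 4534 for WT. The higher T4A library stayed well below the lower WT library. The means were 121.6 ± 6.39 CPM in T4A and 174.3 ± 3.79 CPM in WT (SD, n = 2 each). TOP2A fell to 0.698 of its WT level, a log2 fold change of -0.52 ± 0.05 (SE; 95% interval -0.63 to -0.40; edgeR adjusted p = 7.36e-07). In all 12 alternative fits it was called, with log2 fold changes between -0.60 and -0.44. The size of its change exceeded that of 73.4% of all genes tested, a set that includes genes with few counts. By size alone it was thus not among the extremes of the series.

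TOP2B (ENSG00000077097.17, chr3, 25597905 to 25664907) is the type IIA enzyme of dividing and resting cells and is known for cutting at promoters and at chromatin loop anchors. Its levels were 54.5 and 55.4 CPM in T4A and 66.7 and 64.96 CPM in WT, on 1237 and 1043 counts for T4A and 2238 and 1664 for WT. The groups did not overlap, and each was tight. The means were 55.0 ± 0.67 CPM in T4A and 65.84 ± 1.246 CPM in WT (SD, n = 2 each). TOP2B fell to 0.835 of its WT level, a log2 fold change of -0.26 ± 0.07 (SE; 95% interval -0.41 to -0.11; edgeR adjusted p = 0.0127). This call was the least secure of the 3. It was lost without WT replicate 1 (-0.24, edgeR adjusted p = 0.127) and with upper quartile scaling (-0.18, edgeR adjusted p = 0.0921), and it was made in the other 10 of 12 alternative fits (edgeR, DESeq2 or limma adjusted p between 0.00209 and 0.127 over the 12). Per kilobase of exon the TOP2A to TOP2B ratio was 6.29 and 6.66 in T4A and 7.52 and 7.97 in WT, both T4A ratios being lower (exact permutation p = 0.333, the smallest possible).

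TOP3A (ENSG00000177302.15, chr17, 18271428 to 18314994) dissolves joined DNA molecules together with the helicase BLM, and also works in mitochondria. It had 18.2 and 18.6 CPM in T4A, against 19.98 and 18.97 CPM in WT, on 414 and 349 counts for T4A and 670 and 486 for WT. Both T4A libraries were below both WT libraries, but the gap between the nearest libraries was small. The log2 fold change of -0.08 ± 0.11 (SE; 95% interval -0.32 to 0.15) did not pass the test (edgeR adjusted p = 0.674). With upper quartile scaling its sign was barely positive, at 0.000175.

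TOP3B (ENSG00000100038.20, chr22, 21957025 to 21982787), the DNA and RNA topoisomerase that pairs with TDRD3, was close to the limit of what these libraries hold. The T4A libraries had 9 and 15 counts of it and the WT libraries 23 and 10, which is 0.397 and 0.797 CPM in T4A and 0.686 and 0.390 CPM in WT. The libraries of a group differed by 2.01-fold in T4A and by 1.76-fold in WT, and the groups overlapped. The log2 fold change was 0.12 ± 0.73 (SE; 95% interval -1.40 to 1.64; edgeR adjusted p = 0.940), so a difference was not detectable at this depth. Of its 6638 exonic bases 6024 (90.8%) are shared with exons of the antisense gene PPM1F-AS1, and the alignment did not use strand. The counts of PPM1F-AS1 were 175 and 98 for T4A and 148 and 194 for WT. The level of TOP3B is therefore uncertain, and the part of the overlap in its low count was not tested. For the other members the shared exonic bases came to 2.01% in TOP1 (with PLCG1-AS1), 0.198% in TOP2B and 0 in the other 3.

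**Figure D2:**
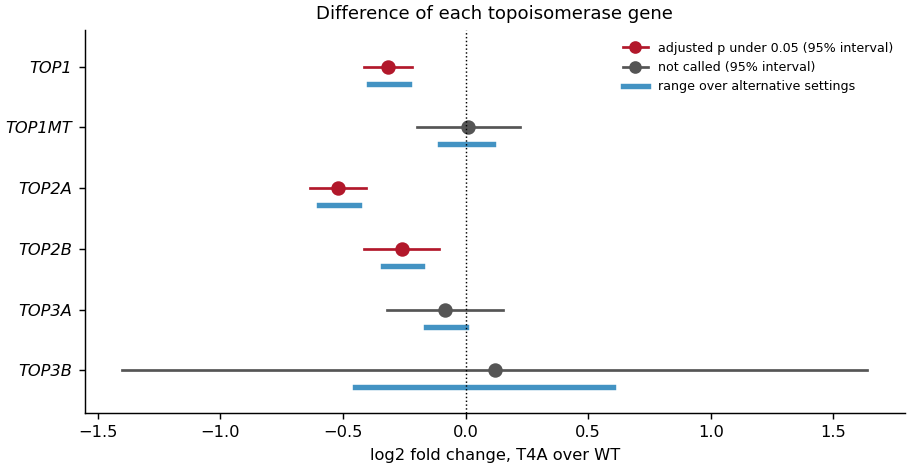
Log2 fold change of T4A over WT (x axis) for each topoisomerase gene, as a point with its 95% interval (red where called, grey where not), and below it in blue the range over the alternative fits. The intervals of TOP2A, TOP1 and TOP2B lie below 0, those of TOP1MT and TOP3A cross 0, and that of TOP3B runs from -1.40 to 1.64.

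To compare levels between genes, CPM was divided by exonic length in kilobases (the union of all annotated exons, which counts rarely used exons too). In T4A the order was TOP2A (19.1 ± 1.00), TOP1 (17.6 ± 0.02), TOP1MT (4.95 ± 0.53), TOP2B (2.95 ± 0.04) and TOP3A (2.24), with TOP3B last. In WT it was the same order, with TOP2A at 27.3 ± 0.60, TOP1 at 21.95 ± 0.48, TOP1MT at 4.91 ± 0.36, TOP2B at 3.53 ± 0.07 and TOP3A at 2.37 CPM per kilobase (SD, n = 2 each). The 6 levels summed to 46.9 ± 0.60 CPM per kilobase in T4A and 60.2 ± 0.43 CPM per kilobase in WT (SD, n = 2 each). TOP2A made up 39.5% and 41.8% of that sum in T4A and 44.5% and 46.4% in WT. TOP1 made up 37.9% and 37.3% in T4A and 36.8% and 36.1% in WT. TOP1MT had 11.4% and 9.66% in T4A and 8.54% and 7.77% in WT. CPM is a share of a library, so these levels are relative. The RNA of a sample came from many cells together, so fewer transcripts per cell and fewer cells that make them cannot be told apart.

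**Figure D3:**
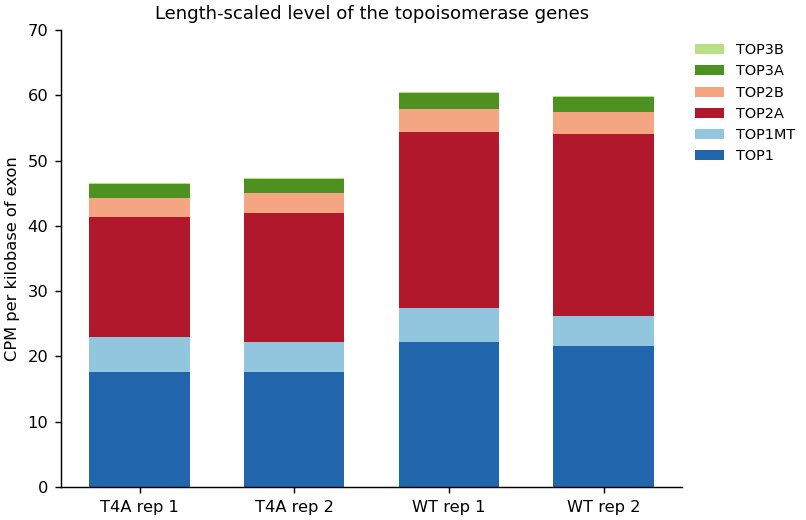
Level of the 6 topoisomerase genes in CPM per kilobase of exon (y axis), stacked for each library, T4A libraries left of WT libraries. The stacks reach 46.5 and 47.4 in T4A and 60.5 and 59.9 in WT, and TOP2A and TOP1 make up most of each.

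Exonic length moved with the fold change across all genes. In 10 bins of equal number by exonic length, the median log2 fold change was 0.25 in the shortest and -0.30 in the longest. Exonic length is the union of all annotated exons of a gene and not the length of an mRNA. It came to 6374 bases in TOP2A, 10127 in TOP1 and 18645 in TOP2B. TOP2A lay in the 7th bin, whose median was -0.08, and 87% of the 1806 genes there had a higher log2 fold change. TOP1 lay in the 9th bin, whose median was -0.21, and 59.8% of the 1805 genes there had a higher one. TOP2B lay in the 10th bin, with a median of -0.30, and 46.3% of its genes had a higher one. With the smooth trend on length subtracted, TOP2A kept -0.42, TOP1 kept -0.10 and TOP2B turned to 0.08. These are values with no test. TOP2A was thus lower than most genes of similar exonic length, and TOP2B was near the middle of its own exonic length bin. Genomic span moved with the fold change too, with bin medians from 0.21 in the shortest to -0.27 in the longest. By span TOP2B lay in the 8th bin, whose median of -0.16 was above its own -0.26. Its place among genes of similar length thus depended on the measure. By span TOP1 lay in the 9th bin (median -0.23) and TOP2A in the 6th (median 0.0003).

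**Figure D4:**
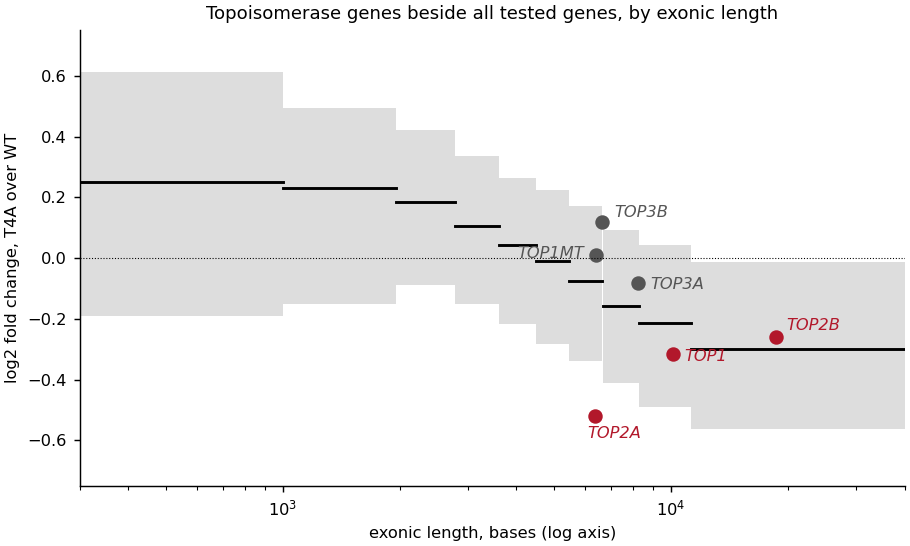
Log2 fold change of T4A over WT (y axis) against exonic length in bases (log x axis, drawn from 300 to 40000, which cuts off the ends of the outer bins). Black lines are the medians of 10 bins of all tested genes and grey areas their middle quartiles, and of the named points TOP2A lies under the grey area, TOP1 under the median of its bin and TOP2B just over its own.

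The genes whose profile over the 4 libraries was most like that of a called member were sought among the 7095 protein-coding genes that averaged 10 CPM or more, by the Euclidean distance of log2 CPM centred on each gene's mean. For TOP2A they were VANGL2 of planar cell polarity (distance 0.0255, log2 fold change -0.54), the mitochondrial glycerol phosphate dehydrogenase GPD2 (0.0275, -0.53) and the stress granule protein G3BP2 (0.0303, -0.49). For TOP1 they were the proteasome activator PSME3 (0.0105, -0.32), the actin bundler PLS3 (0.0130, -0.30) and the translation initiation subunit EIF3A (0.0143, -0.31). For TOP2B they were the mitochondrial fission GTPase DNM1L (0.0135, -0.27), PLBD2 (0.0142, -0.27) and the microtubule protein MAP4 (0.0146, -0.26). With 4 libraries a close profile says little more than a similar fold change. The genes beside the called members did not all fall with them. PLCG1 next to TOP1 fell by 0.34 on the log2 scale (edgeR adjusted p = 9.22e-05). IGFBP4 next to TOP2A was at 17.6 and 20.2 CPM in T4A and 19.2 and 16.1 CPM in WT. NGLY1 next to TOP2B was at 21.4 and 20.8 CPM in T4A and 20.3 and 22.6 CPM in WT. Neither of these passed the test (edgeR adjusted p = 0.667 for IGFBP4 and 0.931 for NGLY1). SMCR8 next to TOP3A fell by 0.65 (edgeR adjusted p = 0.000224), while TOP3A was not called.

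Close relatives were scarce. SPO11, the meiotic relative of the type II enzymes, and the pseudogene TOP3BP1 had 0 counts in every library. C11orf80, which encodes the human TOPOVIBL subunit that works with SPO11, was counted 292 and 220 times in T4A and 343 and 283 times in WT, with a log2 fold change of 0.21 ± 0.15 (SE, edgeR adjusted p = 0.364). The pseudogenes TOP1P1 and TOP1P2 were not found by symbol.

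Of 7 partners of the type IA enzymes 1 rose, against 10.7% of all genes, and the other 6 were not called. The riser was RMI2, an OB-fold subunit of the complex that TOP3A forms with BLM and RMI1. It had 13.8 and 15.0 CPM in T4A, against 9.69 and 10.97 CPM in WT (log2 fold change 0.48 ± 0.15, SE, edgeR adjusted p = 0.0200). That call was lost without T4A replicate 2, without WT replicate 1 and with library totals, while 2 partners rose with upper quartile scaling. The log2 fold changes of the partners that were not called were -0.17 for RMI1, -0.30 for BLM, -0.13 for TDRD3, -0.12 for the fragile X protein gene FMR1, 0.05 for FXR1 and 0.13 for FXR2. The signs of TDRD3 and FXR1 changed with a library left out, and that of FXR1 also with library totals. The median of the list was -0.12.

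Of 12 genes that repair topoisomerases trapped on DNA 5 fell and 2 rose, with a median log2 fold change of -0.31. Among all genes tested 13.0% were lower and 10.7% higher, and among those that averaged 10 CPM or more 24.7% and 22.4%. Without WT replicate 1, 1 fell and 0 rose by edgeR, in a fit that also called fewer genes lower over all genes (1583, against 2351 with all libraries). The log2 fold changes there were -0.64 for ZNF451, -0.54 for LIG3 and 0.40 for XRCC1, close to those of these 3 genes with all libraries. Without WT replicate 2 or T4A replicate 2, with library totals, without a filter, or with the DESeq2 Wald test or limma-voom, 1 rose. The call that held in all 12 alternatives was PARP1, which senses strand breaks, at 1713 and 1708 CPM in T4A and 2114 and 2047 CPM in WT (log2 fold change -0.28 ± 0.03, SE, edgeR adjusted p = 5.27e-07). ZNF451, which aids the release of trapped TOP2, fell by 0.65 (edgeR adjusted p = 0.00577, lost without WT replicate 1). The ligase gene LIG3 fell by 0.57 (edgeR adjusted p = 0.00975, lost without either WT replicate). Its scaffold XRCC1 rose by 0.47 (edgeR adjusted p = 0.00676, lost without WT replicate 1). TDP1 and TDP2, the phosphodiesterases that free DNA from trapped TOP1 and TOP2, are named for that role after their values were seen. Their log2 fold changes were -0.09 (edgeR adjusted p = 0.743) and 0.15 (edgeR adjusted p = 0.253), neither past the test, and the sign of TDP1 changed with a library left out.

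Of 8 SUMO and ubiquitin genes whose products act on topoisomerases 2 rose and 1 fell, against 10.7% and 13.0% of all genes, with a median of 0.06. The modifier gene SUMO2 rose by 0.18 (edgeR adjusted p = 0.00483), a call lost with library totals and without T4A replicate 1. With library totals the list had 0 risers by edgeR, and without a filter 1, where 7.45% and 4.99% of all genes tested were higher. The SUMO ligase gene PIAS1 fell by 0.72 (edgeR adjusted p = 0.00597). Without WT replicate 1 the list had 1 riser and 0 fallers by edgeR, and without T4A replicate 1 or WT replicate 2 it had 1 riser. TOPORS, a ligase first found as a TOP1 partner, was at -0.07 and changed sign with upper quartile scaling and with a library left out.

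TOP2A works on mitotic chromosomes beside condensin, and TOP2B sits at loop anchors with cohesin and CTCF. Of the 14 genes of these complexes 7 fell and 1 rose, with a median log2 fold change of -0.41. Over all genes 13.0% were lower and 10.7% higher, and over those that averaged 10 CPM or more 24.7% and 22.4%. Leaving out single libraries gave 7 or 8 fallers and 1 riser. SMC1A of cohesin was at 320 and 317 CPM in T4A and 555 and 535 CPM in WT (log2 fold change -0.78 ± 0.04, SE, edgeR adjusted p = 7.41e-11). SMC2 of condensin was at 76.4 and 72.5 CPM in T4A and 118 and 118 CPM in WT (-0.66 ± 0.06, SE, edgeR adjusted p = 1.36e-07). NCAPG2, a subunit particular to condensin II, fell by 0.48 (edgeR adjusted p = 1.37e-06), while NCAPH2 of the same complex rose by 0.25 (edgeR adjusted p = 0.00255). The other 6 genes were not called, and CTCF, SMC3 and RAD21 of these are named after their values were seen. CTCF was at 0.15 (edgeR adjusted p = 0.718). The cohesin genes SMC3 and RAD21 were at -0.02 and -0.13 (edgeR adjusted p = 0.946 and 0.329). The fallers had a median of 8164 exonic bases, and the riser NCAPH2 had 4459. The part of length in these falls was not tested.

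TOP2A is expressed late in the cell cycle, so its fall was set beside 24 tested genes of G2 and mitosis. Of these 8 fell and 4 rose, with a median of -0.17. Of all genes 13.0% were lower and 10.7% higher, and of those that averaged 10 CPM or more 24.7% and 22.4%. MKI67, the proliferation antigen, was at 71.5 and 69.0 CPM in T4A and 118 and 116 CPM in WT (log2 fold change -0.74 ± 0.06, SE, edgeR adjusted p = 3.86e-08). CENPF of the kinetochore fell by 0.68 (edgeR adjusted p = 6.67e-06) and HMMR of the spindle by 0.48 (edgeR adjusted p = 0.000173). UBE2C, the ubiquitin carrier that ends mitosis, rose instead, with 25.5 and 24.4 CPM in T4A, against 14.8 and 15.3 CPM in WT (0.73 ± 0.11, SE, edgeR adjusted p = 4.92e-05). BIRC5 (survivin) rose by 0.30 (edgeR adjusted p = 2.81e-05) and the cyclin gene CCNB1 by 0.61 (edgeR adjusted p = 0.00248). The list as a whole summed to 1000.3 and 997 CPM in T4A and 1059 and 1069 CPM in WT. The G2 and mitosis genes thus moved in both directions, the fallers with a median of 5748 exonic bases and the risers with 2222.5. The part of length in that split was not tested. NUSAP1 of this list, with at most 5 counts in a library, was not tested, and 86.8% of its exonic bases are shared with other genes.

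Of 18 S phase genes 3 rose and 3 fell, against 10.7% and 13.0% of all genes, with a median of -0.06. The split moved with the scale. By edgeR there were 6 risers and 0 fallers under upper quartile scaling and 2 and 5 under library totals. Under DESeq2 size factors there were 5 and 1. Shares over all genes moved the same way, with 14.8% higher and 9.47% lower under upper quartile scaling. They were 7.45% and 16.5% under library totals, and 11.2% and 12.1% under DESeq2 size factors. The DESeq2 Wald test called 3 risers and 1 faller, and a minimum mean of 1 CPM gave 5 and 3. The flap endonuclease FEN1 rose by 0.31 (edgeR adjusted p = 0.00586), the histone mRNA binder SLBP by 0.54 (edgeR adjusted p = 0.00762) and the sliding clamp PCNA by 0.24 (edgeR adjusted p = 0.0322). RRM1 of ribonucleotide reductase fell by 0.16 (edgeR adjusted p = 0.0138), UHRF1 by 0.27 (edgeR adjusted p = 0.0471) and the helicase subunit MCM2 by 0.15 (edgeR adjusted p = 0.0499). No call of these 6 held in all 12 alternatives. Without WT replicate 1 the list had 2 risers and 0 fallers by edgeR, and without WT replicate 2 it had 1 riser.

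The mitochondrial setting of TOP1MT and TOP3A was described by the genes that keep and transcribe mitochondrial DNA. Of these 12 genes 2 rose and 2 fell, against 10.7% and 13.0% of all genes, with a median of -0.05. Fallers numbered 0 by edgeR with upper quartile scaling and 1 with DESeq2 size factors or the DESeq2 Wald test. In these fits 9.47%, 12.1% and 9.86% of all genes tested were lower. SSBP1, the mitochondrial single-strand binding protein, was at 55.5 and 57.5 CPM in T4A and 39.1 and 41.0 CPM in WT (log2 fold change 0.50 ± 0.08, SE, edgeR adjusted p = 0.000106). The exonuclease gene MGME1 rose by 0.36 (edgeR adjusted p = 0.00997, called in 10 of 12 alternatives). The polymerase gene POLG fell by 0.27 (edgeR adjusted p = 0.0134, called in 9 of 12 alternatives). The packaging factor TFAM fell by 0.17 (edgeR adjusted p = 0.0355, lost in 6 of 12 alternatives). Which gene was called lower changed with the library left out. Over those fits the log2 fold change ranged over -0.354 to -0.191 for POLG and -0.213 to -0.131 for TFAM.

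Of the 13 mRNAs that the mitochondrial genome itself encodes 8 fell and 3 rose, with a median of -0.12. Over all genes 13.0% were lower and 10.7% higher, and over those that averaged 10 CPM or more 24.7% and 22.4%. With upper quartile scaling 4 fell, and with the DESeq2 Wald test 5 fell, where 9.47% and 9.86% of all genes tested were lower. MT-ND5 fell by 0.98 (edgeR adjusted p = 9.89e-13), MT-ND4L by 1.12 (edgeR adjusted p = 2.60e-11) and MT-ATP8 by 0.69 (edgeR adjusted p = 2.14e-07). MT-CO3 rose by 0.19 (edgeR adjusted p = 1.03e-05), MT-ND3 by 0.28 (edgeR adjusted p = 6.10e-05) and MT-CO2 by 0.11 (edgeR adjusted p = 0.00465, lost with library totals). Without WT replicate 1 the list had 5 risers. Neighbouring mRNAs of this genome overlap or abut, so their separate counts are uncertain. TOP1MT stayed within its spread while these transcripts moved in both directions.

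**Figure D5:**
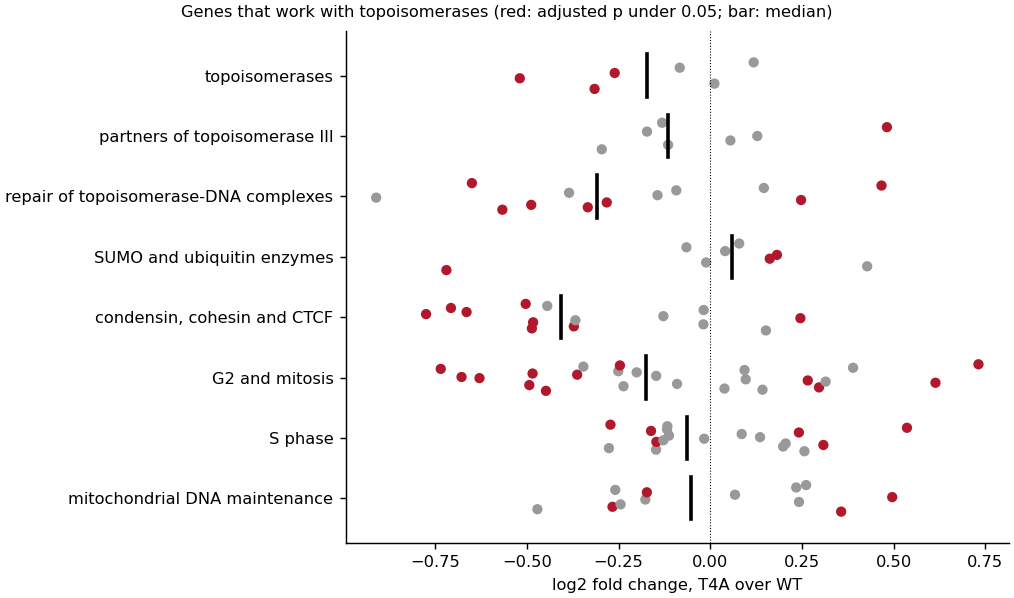
Log2 fold change of T4A over WT (x axis) of every tested gene in the topoisomerase list and 7 others (rows), with red points past an adjusted p under 0.05 in edgeR, grey points not called and a bar at the median of each list. The row of condensin, cohesin and CTCF has the lowest median (-0.41), with CTCF itself at 0.15 and not called. Red points stand on both sides of 0 in the G2 and mitosis row.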

How the data were processed

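Poly(A) RNA libraries of 2 T4A and 2 WT samples were analysed. Per the submitters' processing notes and the study's methods, the authors trimmed reads with Trimmomatic 0.38, aligned them to hg38 with HISAT2 2.2.1 without strand and assigned fragments to genes with featureCounts 2.0.1. The deposited values are raw counts per gene, 1 table a library, with no normalization or pooling. For fragments matching several places, the rule was not given in the sources used here. Genes with close copies are therefore uncertain. Symbols and exonic lengths came from GENCODE release 44 lifted to another build (60877 of 62700 identifiers found, 59852 with their version, a later release than the methods name), and printed coordinates and promoters from RefSeq GRCh38.p14.

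Genes passing filterByExpr (18139) were tested in edgeR 4.0.16 (R 4.3.3) by its quasi-likelihood test with TMM, with Benjamini-Hochberg adjustment over all of them, and called at an adjusted p under 0.05. The spread is estimated over all genes together (common BCV 0.114). Replicates of a group differed by more than counting noise (chi-square per degree of freedom 4.56 in T4A and 5.66 in WT). The paper calls them biological replicates. Nothing in the labels says that they were separate cultures, and p-values then reflect the spread of these libraries alone, possibly a technical one. Counting errors and intervals of counts cover counting only. The 6 members and the 11 gene lists beside them were chosen with earlier results of these data known. Named are the members, POLR2A, relatives, neighbours, the 3 nearest profiles of each called member, and up to 3 called genes per direction of each list (any gene in lists of at most 8). A few genes that fall under this choice are not reported here. The 12 alternative fits used DESeq2 size factors, upper quartile scaling, library totals, no filter, a minimum mean of 1 CPM, the Wald test of DESeq2 1.42.0, limma-voom (limma 3.58.1), a replicate block and each library left out. Log2 CPM carried a prior count of 2.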

Additional observations from a re-analysis of the deposited data

How the results depend on the processing

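The direction and call of TOP2A and TOP1 held in all 12 alternative fits. Of 71 member values under alternatives 62 kept direction and side of the threshold, 2 kept direction but lost the call and 7 turned direction. With upper quartile scaling, which raised the median of all genes to 0.077, TOP2B (-0.177) lost its call, TOP3A was at 0.000175 and TOPORS at 0.0178. With library totals, which lowered that median to -0.084, TOP1MT was at -0.066 and FXR1 at -0.0226. Without a filter TOP1MT was at -0.0156. With single libraries left out TOP1MT ranged over -0.106 to 0.112, TOP3B over -0.452 to 0.602, TOP2B over -0.285 to -0.235, TOPORS over -0.352 to 0.225, FXR1 over -0.0869 to 0.186, TDRD3 over -0.367 to 0.0767 and TDP1 over -0.221 to 0.016. A group left with 1 library is assumed there to vary like the other group. With the trend on exonic length subtracted TOP2A was at -0.417, TOP1 at -0.0977, TOP3A at 0.0869 and TOP2B at 0.0773. The cause of these shifts was not tested. Over all genes 1935 were higher and 2351 lower, against 2690 and 1718 with upper quartile scaling and 1352 and 2987 with library totals.

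Over 14648 genes the deviations of replicate 1 from its group mean did not correlate between T4A and WT (Pearson 0.00207). With 2 libraries per group this cannot show whether libraries of the same number were made together. With the replicate block 2012 genes were higher and 2432 lower, and the log2 fold changes were -0.52 for TOP2A, -0.32 for TOP1 and -0.26 for TOP2B (edgeR adjusted p = 0.0135), with no member's call changed. TOP3B could not be tested with a minimum of 1 CPM, and its counts of 9 to 23 limit what depth can show.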
